A study of Homo sapiens with 5 samples.

Results

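Interferon-response genes were followed through RNA-seq and chromatin data from human prostate cancer cell lines. The set holds 44 genes out of 22927 gene symbols in the expression table. They were chosen by name as known targets and regulators of the interferon response, with earlier results of the series known. Of these, 42 reached 1 FPKM (fragments per kilobase of transcript, scaled to library depth) in at least 1 RNA library, and IFI16 and MX2 did not. The series asks what the lysine demethylase LSD1, encoded by KDM1A, does in androgen signalling, and holds 5 samples with 1 sample per group. The RNA groups were LNCaP cells, an androgen-responsive line from a lymph node metastasis, transfected with control siRNA or with LSD1 siRNA. The chromatin immunoprecipitation (ChIP-seq) groups, from cells not transfected, were LSD1 in LNCaP, phosphorylated histone H3 threonine 6 (H3T6ph) in LNCaP, and LSD1 in VCaP, a vertebral metastasis line. All groups had 3 days of charcoal-stripped serum ahead of hormone, and the labels do not say which hormone or what each sample received.

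Cells make interferons when sensors such as MDA5 (IFIH1) and RIG-I meet double-stranded RNA. Secreted interferon binds receptors that act through JAK1 and TYK2 and a complex that holds STAT2 and IRF9, which binds a promoter element called the ISRE. The induced genes include RNA-cutting systems (OAS genes), proteins that hold back viral RNA (IFIT genes), membrane factors (IFITM genes, BST2) and ISG15, a ubiquitin-like modifier. LSD1 removes methyl groups from histone H3 lysine 4, and H3T6ph is a mark known to change which lysine it acts on.

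Promoter windows are shown for 6 members whose RNA values or peaks are described below. Each runs from 250 bases before to 50 bases after the RefSeq start (GRCh38.p14). Capitals mark the ISRE core, read as GAAA, any 2 bases and GAAA, on either strand, and in IRF9 the core of GAS, an element of the interferon gamma response, TTCNNNGAA, which reads the same on both strands. Matches may overlap.
ISG15 (1:1013247-1013546, plus strand): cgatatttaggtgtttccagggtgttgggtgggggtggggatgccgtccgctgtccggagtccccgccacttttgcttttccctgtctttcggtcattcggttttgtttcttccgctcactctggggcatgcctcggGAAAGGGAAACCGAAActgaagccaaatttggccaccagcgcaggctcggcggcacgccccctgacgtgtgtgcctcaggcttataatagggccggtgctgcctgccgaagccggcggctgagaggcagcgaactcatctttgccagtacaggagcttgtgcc
IFIT1 (10:89392373-89392672, plus strand): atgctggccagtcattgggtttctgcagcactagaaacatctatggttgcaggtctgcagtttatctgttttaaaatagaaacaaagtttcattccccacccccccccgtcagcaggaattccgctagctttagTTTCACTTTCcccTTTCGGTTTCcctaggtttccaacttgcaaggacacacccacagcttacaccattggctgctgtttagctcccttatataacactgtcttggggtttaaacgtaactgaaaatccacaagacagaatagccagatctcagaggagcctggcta
IFI6 (1:27672143-27672442, minus strand): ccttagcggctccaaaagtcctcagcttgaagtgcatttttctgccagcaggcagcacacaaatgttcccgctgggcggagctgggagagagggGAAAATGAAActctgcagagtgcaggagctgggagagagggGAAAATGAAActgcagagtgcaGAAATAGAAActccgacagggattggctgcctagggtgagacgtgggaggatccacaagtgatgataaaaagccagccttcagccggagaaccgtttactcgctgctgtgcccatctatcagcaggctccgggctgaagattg
HERC5 (4:88456869-88457168, plus strand): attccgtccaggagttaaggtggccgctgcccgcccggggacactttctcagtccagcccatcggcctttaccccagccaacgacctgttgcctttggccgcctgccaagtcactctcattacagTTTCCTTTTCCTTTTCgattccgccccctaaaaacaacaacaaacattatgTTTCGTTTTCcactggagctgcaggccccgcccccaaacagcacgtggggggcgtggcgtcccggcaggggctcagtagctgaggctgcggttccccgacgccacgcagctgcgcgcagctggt
IRF9 (14:24161015-24161314, plus strand): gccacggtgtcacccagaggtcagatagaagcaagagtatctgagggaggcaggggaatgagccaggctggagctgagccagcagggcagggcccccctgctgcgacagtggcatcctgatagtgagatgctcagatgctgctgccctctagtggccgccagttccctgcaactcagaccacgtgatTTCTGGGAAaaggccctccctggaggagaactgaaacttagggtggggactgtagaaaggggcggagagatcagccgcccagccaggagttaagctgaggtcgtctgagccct
IFI27 (14:94110486-94110785, plus strand): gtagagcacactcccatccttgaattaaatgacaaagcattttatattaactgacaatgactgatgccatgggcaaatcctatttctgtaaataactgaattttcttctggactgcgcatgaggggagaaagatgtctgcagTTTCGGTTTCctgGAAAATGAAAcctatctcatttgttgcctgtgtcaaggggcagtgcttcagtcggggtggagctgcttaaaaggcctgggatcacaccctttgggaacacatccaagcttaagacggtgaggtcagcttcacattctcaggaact

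Of the 44 genes, 35 had a promoter window in the RefSeq table, and 24 of the 35 (68.6%) held the ISRE core in at least 1 window. Over all 27305 genes with a window the share was 4.38%, and over all 35116 windows it was 3.57%. The GAS core was in 10 of the 35 members (28.6%) and in 9.38% of all genes. The members were chosen as known interferon targets, so these shares are no independent result about the set. ISG15 had 2 overlapping ISRE matches, beginning at bases -113 and -107 from the start, IFIT1 had 2 on the minus strand, and IFI6 and HERC5 had 3 each. IRF9 had no ISRE core match in its window and 1 GAS match, beginning at base -63. IFI27 had 2 ISRE matches and a GAS match, beginning at base -101, that overlaps both and is not marked on its own. A match is a run of letters and says nothing of binding in these cells.

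Some interferon-response genes were abundant in both RNA libraries, before any difference between the libraries is considered. ISG15 was at 460 FPKM with control siRNA, higher than 98.5% of the 12914 genes tested, and at 597 FPKM with LSD1 siRNA. IFI6, a mitochondrial survival protein gene, was at 303 and 388 FPKM in the same order. The median of the 42 genes was 18.5 FPKM with control siRNA, against 12.7 FPKM over all genes tested. Levels were uneven, since MX1, usually a strongly induced antiviral GTPase gene, was at 1.40 and 1.56 FPKM and MX2 at 0.626 and 0.881 FPKM. IFI16, a DNA sensor gene, was at 0.538 and 0.619 FPKM. Both RNA libraries were transfected, and no untransfected RNA library was analysed here. Whether interferon drove these levels was not tested.

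Transcripts of the interferons themselves were detected. IFNB1, which encodes interferon beta, was at 4.09 FPKM in the control library and at 7.27 FPKM after LSD1 siRNA, a difference of 0.70 on the log2(FPKM + 1) scale used throughout. It has no introns, so its value could be turned into an estimated 86 and 118 fragments. The ratio of the values was 1.78, with an exact 95% interval of 1.33 to 2.37 that covers counting error only. IFNL1, a type III interferon gene, was at 5.16 and 8.36 FPKM (log2 0.60). IFNL2 was at 2.00 and 2.74 FPKM and IFNL3 at 1.86 and 1.40 FPKM, and these near-identical copies may exchange reads. The authors' deposited table gives IFNB1 a p of 0.0208 and a q of 0.545, and IFNL1 a p of 0.0400 and a q of 0.721, so it called neither. All 13 IFNA genes of the list were at 0 FPKM in both libraries, and 16 of 21 ligand genes were.

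The target of the siRNA, KDM1A, was at 37.0 and 6.87 FPKM, 18.6% of control. All 9 luminal markers were above 1 FPKM, as the labelled cell type has them, with a summed level of 5160 and 4060 FPKM. Of the 6 leukocyte markers with a value only LYZ passed 1 FPKM (1.68 and 1.76 FPKM), CD3E was at 0, and the list summed to 1.74 and 1.83 FPKM. Both plasmacytoid dendritic cell markers were at 0. The basal list summed to 0.634 and 0.925 FPKM, the endothelial list to 1.99 and 2.51 FPKM, and the fibroblast list to 9.02 and 11.9 FPKM, almost all of it COL1A1. The part of these small differences in the results below was not tested. By estimated fragments, the library with LSD1 siRNA was sequenced to 77.3% of the other's depth.

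Comparing LSD1 siRNA with control siRNA, more interferon-response genes had a higher value than a lower one, by amounts under 1.5-fold in all but 2. Of the 42 genes 26 (61.9%) had a higher value after LSD1 siRNA and 16 a lower one, where 47.4% of all genes tested and 47.1% of protein-coding genes were higher. The median log2 difference was 0.15, against -0.01 over all genes tested. Past 1.5-fold there was 1 gene higher, APOL3, and 1 lower, IFI27, where 1.91% of all genes (1.04% of protein-coding genes) were higher and 2.41% (1.18%) lower by that size. The same 2 genes passed 2-fold, where 0.844% of all genes (0.111% of protein-coding genes) were higher and 1.13% (0.128%) lower. A smaller step of 0.25 in log2 was reached upward by 15 members, against 11.1% of all genes (9.85% of protein-coding genes), and downward by 4, against 13.0% (12.0%). Each RNA group is a single library, so the differences could not be set against replicate error and were not tested. The members were chosen with earlier results of these data known, so the shares over all genes are no blind comparison.

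**Figure D1:**
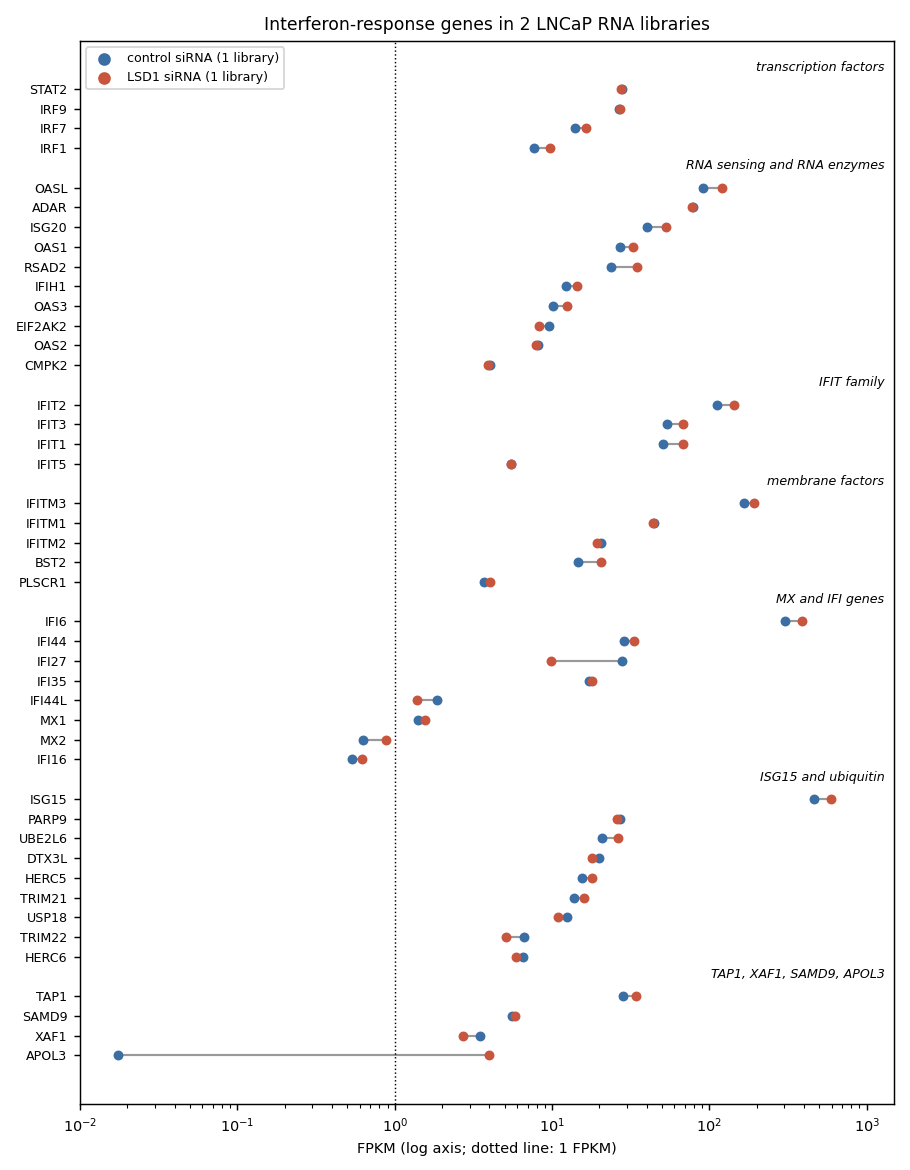
FPKM of each of the 44 interferon-response genes (log axis) in the control siRNA library (blue) and the LSD1 siRNA library (red), 1 library each, grouped by role and ordered by control level. Most pairs lie close together, ISG15 is the highest at 460 and 597 FPKM, and only IFI27 and APOL3 lie more than 2-fold apart on the log2(FPKM + 1) scale.

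The transcription factors of the pathway differed little, with 3 of 4 higher and a median of 0.12. STAT2, which carries the activating part of the interferon-induced complex, was at 27.9 and 27.3 FPKM. Its partner IRF9, which contacts DNA, was at 26.8 and 27.1 FPKM. IRF7, which amplifies interferon gene transcription, was at 13.9 and 16.4 FPKM (log2 0.23). IRF1, an activator downstream of interferon gamma, was at 7.67 and 9.74 FPKM (log2 0.31). So STAT2 and IRF9 were both within 0.03 of 0 on the log2 scale, and the 2 IRF activators were higher.

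The IFIT genes, neighbours on chromosome 10 whose proteins bind viral RNA, had the highest group median at 0.35. IFIT2 (10:91061706-91069033, hg19) was at 112 and 144 FPKM (log2 0.36). IFIT3 was at 53.4 and 67.7 FPKM (log2 0.34) and IFIT1 at 51.0 and 67.9 FPKM (log2 0.41). Those 3 were higher by nearly the same amount, and IFIT5, at 5.51 and 5.48 FPKM, differed by -0.01.

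Genes of RNA sensing and RNA-acting enzymes split, with 6 of 10 higher and a median of 0.24. RSAD2, the radical SAM enzyme viperin that makes a chain-ending nucleotide, had the largest difference among them, at 23.7 and 34.8 FPKM (log2 0.53). In the authors' deposited table its p was 0.00774 and its q 0.337. CMPK2, the kinase gene next to RSAD2 that supplies its nucleotide substrate, was at 4.06 and 3.91 FPKM (log2 -0.04). Its coding accession NM_207315 was at 1.08 and 1.33 FPKM and its noncoding accession NR_046236 at 2.98 and 2.58 FPKM. The 2-5A synthase genes were uneven. OAS1 was at 27.0 and 32.6 FPKM (log2 0.26) and OAS3 at 10.2 and 12.5 FPKM (log2 0.27), while OAS2, which lies beside them, was at 8.17 and 7.87 FPKM. OASL, a family member without synthase activity that aids RIG-I, was at 90.6 and 120 FPKM (log2 0.40). ISG20, an RNA exonuclease gene, was at 40.3 and 53.0 FPKM (log2 0.39), and the sensor gene IFIH1 at 12.3 and 14.5 FPKM (log2 0.22). Others of the group were lower or near 0. EIF2AK2, the kinase PKR that halts translation, was at 9.59 and 8.24 FPKM (log2 -0.20), and ADAR, which edits adenosine in double-stranded RNA, was at 78.7 and 78.1 FPKM.

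Among membrane factors BST2, or tetherin, which holds budding viruses at the cell surface, was at 14.6 and 20.6 FPKM (log2 0.47). IFITM3, a blocker of viral fusion, was at 165 and 191 FPKM (log2 0.20). IFITM1 and IFITM2 were at 44.7 and 43.6 FPKM and at 20.4 and 19.4 FPKM. IFITM2 and IFITM3 are near-identical copies, so how reads were shared between them is uncertain. PLSCR1, a scramblase gene, was at 3.67 and 4.06 FPKM.

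In the ISG15 conjugation system the modifier and its conjugating enzyme were higher and its protease was lower. ISG15 differed by 0.37 and UBE2L6, its conjugating enzyme, was at 20.8 and 26.3 FPKM (log2 0.32). HERC5, its main ligase, was at 15.6 and 17.9 FPKM (log2 0.18) and the related HERC6 at 6.49 and 5.87 FPKM. USP18, which removes ISG15 and restrains the interferon receptor, was at 12.4 and 10.9 FPKM (log2 -0.17). The partners PARP9 and DTX3L, which share a start region, were at 27.2 and 25.7 FPKM and at 19.8 and 18.0 FPKM. The antibody receptor TRIM21 was at 13.8 and 15.9 FPKM, and TRIM22 was at 6.60 and 5.09 FPKM (log2 -0.32). That was the lowest difference by symbol after IFI27, whose full interval was higher (log2 0.28). The group as a whole had 4 of 9 genes higher and a median of -0.08.

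Of the remaining genes IFI6 differed by 0.36, and IFI44 was at 28.8 and 33.4 FPKM (log2 0.21). IFI35 was at 17.2 and 18.0 FPKM. IFI44L, a paralog next to IFI44, was at 1.85 and 1.38 FPKM (log2 -0.26). TAP1, a subunit of the peptide pump that feeds class I molecules, was at 28.1 and 34.1 FPKM (log2 0.27). SAMD9 was at 5.54 and 5.84 FPKM, and XAF1, an apoptosis factor gene, at 3.47 and 2.72 FPKM by symbol (log2 -0.27).

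Higher values were most frequent among the abundant members. Of the 18 genes with a mean of 20 FPKM or more 14 (77.8%) were higher, with a median of 0.30, where 45.9% of 4205 protein-coding genes at that level were higher and their median was -0.02. Differences of at least 0.25 in log2 were found in 11 of the 18 upward and in 0 downward. Of the 4205 protein-coding genes, 328 reached that step upward and 484 downward. The 4 lower genes of this level were IFITM1, STAT2, PARP9 and ADAR, all within 0.08 of 0. Of the 18 genes at 5 to 20 FPKM 9 were higher (median 0.03), and of the 6 below 5 FPKM 3 were (median 0.03). The split by level was chosen after the values were seen, and the difference between the levels was not tested.

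**Figure D2:**
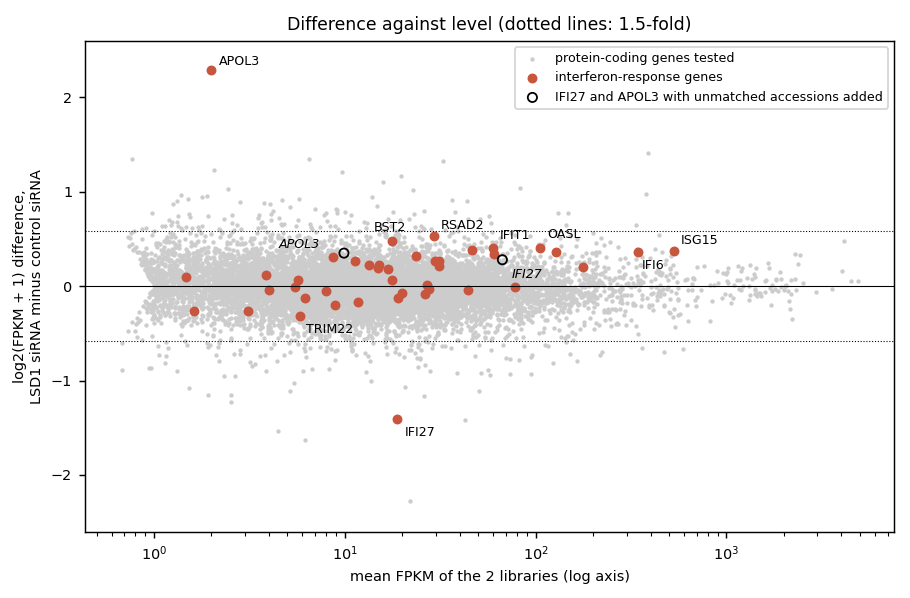
Difference in log2(FPKM + 1), LSD1 siRNA minus control siRNA, against the mean FPKM of both libraries (log axis) for protein-coding genes (grey) and interferon-response genes (red), with dotted lines at 1.5-fold. Of members at 20 FPKM or more, 14 of 18 lie above 0, and open circles show IFI27 and APOL3 at 0.28 and 0.35 once unmatched accessions at their intervals are added.

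Neither gene past 2-fold kept that size when the rest of its interval was counted. IFI27 (14:94577079-94583033, hg19), a small mitochondrial and nuclear envelope protein gene, was listed by symbol through 1 accession, NM_001130080, at 27.8 and 9.81 FPKM (log2 -1.41). A second accession at exactly that interval, NM_005532, has no symbol in the RefSeq table used here and was at 32.6 and 63.7 FPKM (log2 0.95). The 2 differed in opposite directions, and their sum was 60.4 and 73.5 FPKM (log2 0.28). The first made up 46.0% of the interval's signal with control siRNA and 13.4% with LSD1 siRNA. The authors' deposited table gives NM_001130080 a p of 0.697 and NM_005532 a p of 0.114, and calls neither.

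APOL3 (22:36536371-36562225, hg19), which encodes an apolipoprotein L that can lyse membranes of intracellular bacteria, went from 0.0173 to 3.98 FPKM by symbol (log2 2.29), all of it in NM_145640. It passed the 1 FPKM minimum through the LSD1 siRNA library alone, and with control near 0 the size depends on the pseudocount, at 3.11 with 0.5 FPKM and 5.12 with 0.1 FPKM added. Unmatched noncoding accessions at the same interval held most of the control signal. NR_027835 was at 6.86 and 5.51 FPKM and NR_027833 at 1.72 and 1.35 FPKM. The interval sum was 8.60 and 11.2 FPKM (log2 0.35). Of its neighbours on chromosome 22, APOL1 was at 12.1 and 18.2 FPKM (log2 0.55), and APOL2 differed by 0.37. APOL4 and APOL6 differed by 0.04 and -0.19. With the unmatched accessions added, 27 of 42 members were higher, the median was 0.19, and 0 members passed 1.5-fold in either direction. They were added at member intervals only, so these counts have no matching share over all genes.

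Division of signal among accessions also differed in other members. The only member accession that the authors' deposited table called, of 66 it tested, was NR_046398 of XAF1, a noncoding form at 1.19 FPKM with control siRNA and listed at 0 with LSD1 siRNA (q of 0.0101), where 0.642% of all accessions tested were called. The main coding form of XAF1, NM_017523, was at 2.28 and 2.37 FPKM. With the unmatched accessions at its interval added, XAF1 was at 3.47 and 3.16 FPKM (log2 -0.10). In OAS1, NM_001032409 went from 1.25 to 4.62 FPKM while the main form NM_016816 was at 24.5 and 27.3 FPKM. In MX1, NM_001144925 was at 0.650 and 1.51 FPKM and NM_002462 at 0.659 and 0.0000558 FPKM. In IRF7, NM_004029 made up 5.24% and 15.0% of the gene's signal. The main form of ADAR, NM_001025107, made up 81.5% and 80.3%. Accessions of a gene share most of their sequence, so these divisions are estimates of the authors' program and less certain than the sums.

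**Figure D3:**
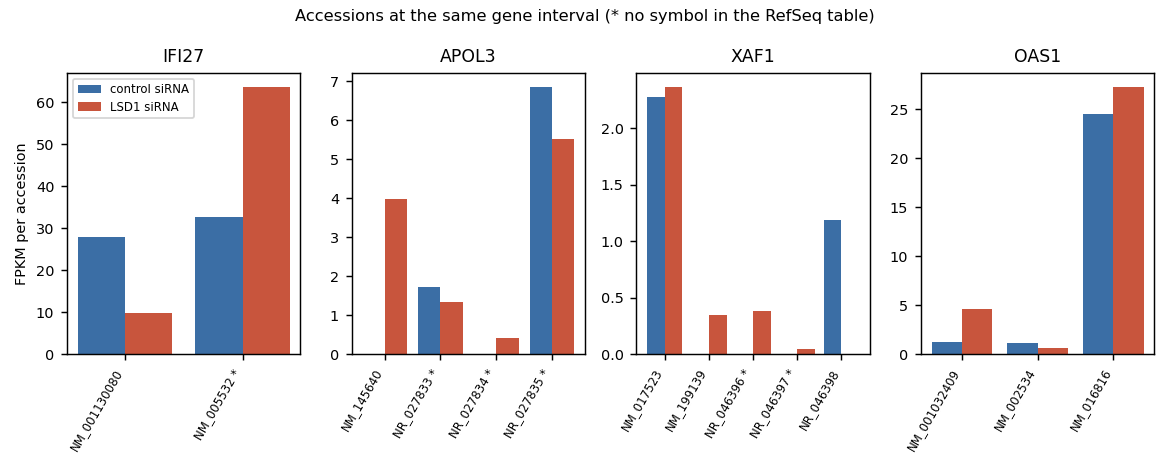
FPKM of single RefSeq accessions at the intervals of IFI27, APOL3, XAF1 and OAS1 in the control siRNA (blue) and LSD1 siRNA (red) libraries, with an asterisk where the RefSeq table has no symbol for the accession. At IFI27 the matched accession goes from 27.8 to 9.81 FPKM while the unmatched one goes from 32.6 to 63.7 FPKM.

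Other parts of the pathway were read from lists that hold none of the 44 genes, beside the 47.4% of all genes tested that were higher. These lists too were chosen with earlier results of the data known. Of the 5 measured receptor genes 3 were higher. IFNGR1, a chain of the interferon gamma receptor, was at 38.0 and 51.7 FPKM (log2 0.43), and IFNAR2, a chain of the type I receptor, was at 15.4 and 11.1 FPKM (log2 -0.44). Signalling kinases and factors had 4 of 8 genes higher and a median of 0.01. JAK1, which LNCaP is known to express poorly, was at 4.52 and 4.76 FPKM. The largest differences there were in JAK2 (log2 -0.29) and IRF5 (log2 0.16). Inhibitors of the pathway had 5 of 10 higher and a median of 0.00, with PIAS4 at 0.24 and PTPN11 at -0.21.

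Sensors and adaptors had 8 of 12 higher with a median of 0.06, led by TLR3, the endosomal RNA receptor (log2 0.32), and TRAF3 (log2 0.29). RIGI was at 20.9 and 24.5 FPKM. The DNA sensor gene CGAS, at 0.0189 and 0.0245 FPKM, and its partner STING1, at 0.476 and 0.934 FPKM, were below the 1 FPKM minimum. Antigen presentation had 9 of 16 higher with a median of 0.15. NLRC5, the activator of class I genes, was at 2.94 and 4.86 FPKM (log2 0.57), and HLA-C at 249 and 305 FPKM (log2 0.29), while B2M differed by -0.04. HLA genes are similar in sequence and variable, which makes their mapping uncertain.

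A longer list of other interferon-stimulated genes had 37 of 58 higher (63.8%) and a median of 0.06. Past 1.5-fold were OGFR, the opioid growth factor receptor gene, at 14.7 and 30.8 FPKM (log2 1.02), and GBP2, a guanylate-binding protein gene, at 9.48 and 15.8 FPKM (log2 0.68). The authors' deposited table called OGFR (q of 9.58e-04) and not GBP2 (q of 0.126). No gene of that list was lower by 1.5-fold. The chemokine genes CXCL10 (30.5 and 33.8 FPKM) and CCL5 (10.3 and 11.9 FPKM) were expressed in both libraries.

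**Figure D4:**
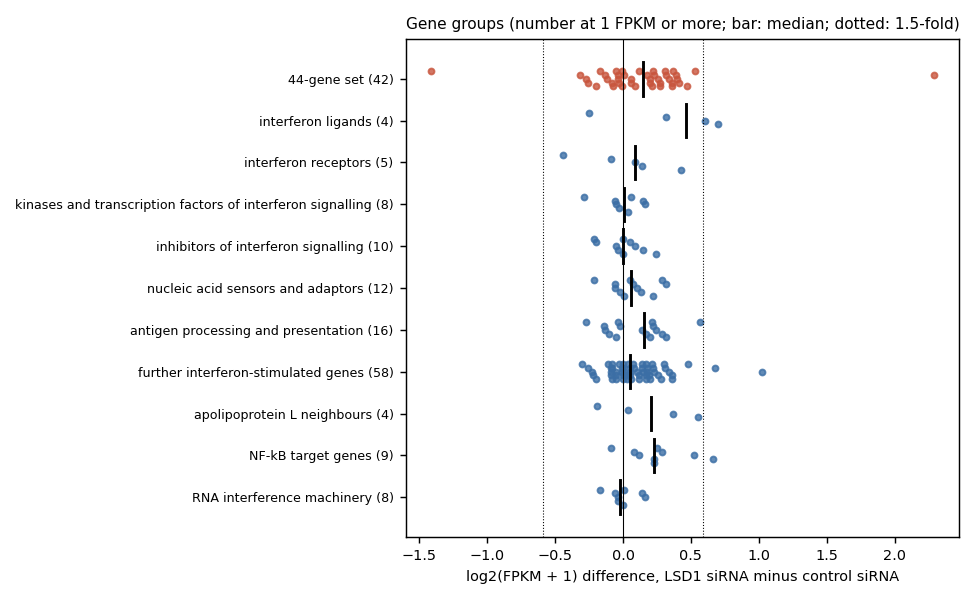
Difference in log2(FPKM + 1), LSD1 siRNA minus control siRNA, for each gene at 1 FPKM or more in the 44-gene set (red) and in 10 related lists (blue), with a bar at the median and dotted lines at 1.5-fold. The 44-gene set has its median at 0.15, the 4 measured ligand genes at 0.46, and the kinases and inhibitors at 0.01 and 0.00.

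Peaks within 20 kb of interferon-response genes were counted beside the same count over all expressed genes. Of 41 expressed members with an interval on the main chromosomes, 15 (36.6%) had an LNCaP LSD1 peak within 20 kb, against 41.7% of all genes tested (42.6% of protein-coding genes). Peaks overlapped 8 of the members (19.5%), against 27.2% of protein-coding genes. For VCaP LSD1 13 were near (31.7%), against 41.7% (42.4%), and 6 were overlapped (14.6%), against 26.9%. For H3T6ph it was 2 (4.88%), PARP9 and DTX3L, against 18.0% (18.2%) near a peak and 11.1% of protein-coding genes overlapped. Both were counted through 1 peak because the table lists them under 1 interval, and the peak lies on the PARP9 side of it. Member intervals were shorter, with a median of 18.5 kb against 33.3 kb for protein-coding genes, and the part of length in these shares was not tested. TAP1 was left out because its interval lies on an alternate haplotype sequence.

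At 3 members an LNCaP LSD1 peak met or nearly met the start. At IRF9 (14:24630422-24635774, hg19) the LNCaP peak (14:24629881-24630364, authors' score 66.5) ended 58 bases before the interval, and it overlapped a VCaP peak (14:24630092-24630878, score 83.5) that covers the start. HERC5 (4:89378268-89427319) had overlapping peaks of both lines across its start, at 4:89377721-89378525 in LNCaP (score 68.5) and 4:89377553-89378425 in VCaP (score 81.6). The same peaks lie within 20 kb of HERC6. IFI6 (1:27992572-27998724), which reads from its high-coordinate end, had an LNCaP peak across the start (1:27998487-27999332, score 93.4) and a separate VCaP peak inside the gene (1:27995323-27996168, score 61.2). The promoter windows of all 3 are among those printed above. In RNA, IRF9 differed by 0.01, HERC5 by 0.18 and IFI6 by 0.36.

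Other LNCaP LSD1 peaks lay inside genes. RSAD2 held one 5.72 kb from its start (2:7023519-7024457, score 67.7), which is also 16.8 kb from CMPK2. HERC6 (4:89332465-89333310, score 97.6), OAS2 (12:113430676-113431596, score 69.9), IFIH1 (2:163146684-163147759, score 59.2), HERC5 (4:89388237-89389091, score 52.4), MX1 (21:42805377-42806071, score 51.9) and EIF2AK2 (2:37375444-37376078, score 51.8) each held one as well. The highest-scoring LNCaP peak near a member lay 8.39 kb past HERC5 (4:89435707-89437246, score 133). Next came a peak of both lines upstream of BST2 and within MVB12A (19:17529952-17530933, score 119, in LNCaP), which in VCaP had the highest score near any member (132.5). These scores are the authors', and the median score of the 17 peaks near members, 66.5, was close to that of the whole LNCaP list, 66.6.

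VCaP LSD1 peaks lay inside ADAR (1:154588793-154590149) and 571 bases upstream of its start (1:154601027-154602033), and inside OAS1 and EIF2AK2. Others were 1.23 kb past the end of ISG15 and 1.37 kb before the start of IFIT1. Of the members near LSD1 in LNCaP 7 of 15 (46.7%) were also near LSD1 in VCaP, against 52.3% of all genes near LSD1 in LNCaP. They were 53.8% of the members near LSD1 in VCaP, against 52.2% of all such genes, so both shares were close to the background. Peaks of the lines overlapped at 3 of these sites, at IRF9, HERC5 and BST2. The single H3T6ph peak (3:122258007-122258373, score 55.1) lay inside the interval listed for both PARP9 and DTX3L (3:122246760-122294049, hg19). Their RefSeq promoters lie on opposite strands, PARP9 reading to lower and DTX3L to higher coordinates. The promoter windows overlap, so the gene bodies may overlap near their starts. The peak lay in the low-coordinate part of the interval, on the side of PARP9. Its distance from the DTX3L start was not measured, so the count of 2 members rests on the shared interval. No LSD1 peak overlapped the H3T6ph peak.

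Members were also divided by peaks and by promoter content. The 15 members near an LNCaP LSD1 peak had 10 higher and a median of 0.18, and the 26 others had 15 higher and a median of 0.09. By promoter content, 17 of the 24 members with an ISRE core were higher (median 0.20), and 5 of the 10 with a window but no ISRE core (median 0.00). IFI27 was counted in both splits by its symbol value of -1.41. The same shares were not computed over all genes with an ISRE core or near an LNCaP LSD1 peak, so neither split has a background. These splits were not tested.

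**Figure D5:**
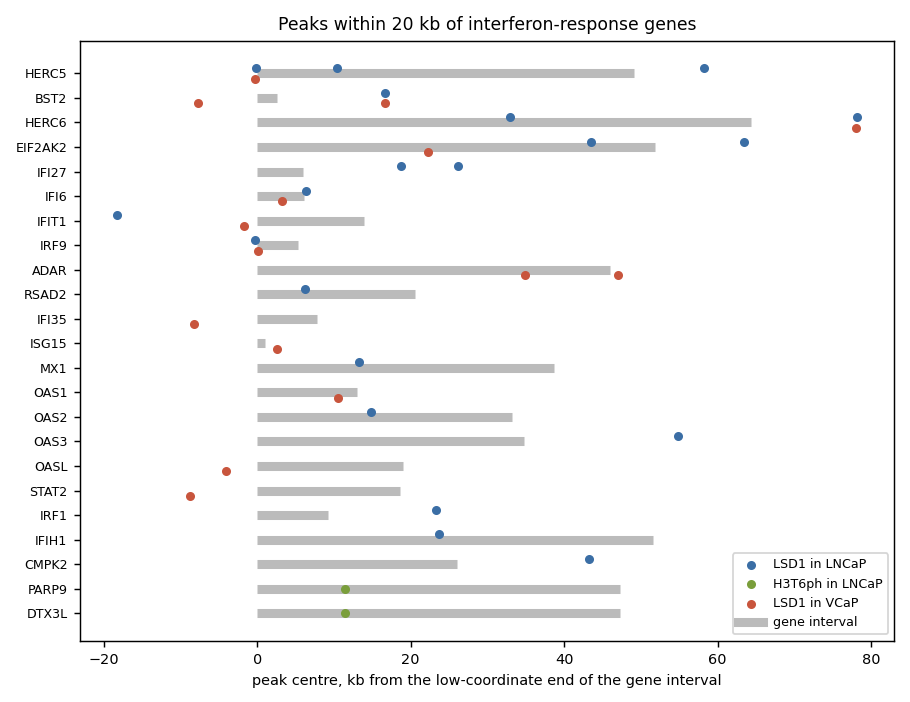
Peak centres of LSD1 in LNCaP (blue), H3T6ph in LNCaP (green) and LSD1 in VCaP (red) within 20 kb of interferon-response genes, in kb from the low-coordinate end of each gene interval (grey bar), for the members with any such peak. Blue and red points coincide at HERC5, IRF9 and BST2, and the HERC5 peaks appear again beside HERC6.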

How the data were processed

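The submitters' processing notes name TopHat2 2.0.4, Cuffdiff 2.0.1, Bowtie2 2.0.0, MACS2 and build hg19. The authors deposited FPKM per RefSeq accession for 2 RNA libraries with a p-value and q-value of their own comparison, and a peak list with a score for each of 3 ChIP samples, per the file headers. How the score and the library scaling were computed, and which control track was used, is not given in the sources used here. Symbols were found for 38930 of 40253 accessions (96.7%) through the RefSeq gene table of GRCh38.p14, and FPKM was summed per symbol. Genes with an accession marked as failed were left out. Genes that reached 1 FPKM in at least 1 library were compared by size of change. This was the log2(FPKM + 1) difference, LSD1 siRNA minus control siRNA, with calls at 1.5-fold and 2-fold. The 1.5-fold call was tried on simulated data that hold counting error only. Those data hold no variation between libraries, so the trial says nothing of replicate error. With 1 library per group no p-value was computed. Depth came from 20 and 24 intronless olfactory receptor genes at 1 fragment, giving 33.0 and 25.5 M fragments. A 2 kb transcript at 1 FPKM then rests on about 59.3 and 45.8 fragments. ChIP depth is unknown. RNA libraries were made with the unstranded TruSeq v2 kit, in which a gene and its antisense partner share reads. Peaks counted as near within 20 kb of the table's hg19 gene interval, which carries no strand and which 3 members (TAP1, PARP9 and DTX3L) share with another gene. Gene starts use the strand in the RefSeq promoter table. Named were all members, the targeted gene, the 2 to 4 most changed genes of each list, peaks inside or within 1 kb of a member, and the 3 highest-scoring peaks per list. JAK1, RIGI, CGAS, STING1, B2M, CXCL10, CCL5 and NFKBIA, and accessions of APOL3 and MX1, were named beside that rule, after their values were seen. Values of some listed genes are not reported here. The members and lists were chosen with earlier results of these data known. Alternatives covered pseudocount, filter, accession choice, centring, failed accessions, fold, distance and peak score. Python 3.11.15, pandas 2.3.3 and scipy 1.17.1 were used.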

Additional observations from a re-analysis of the deposited data

How the results depend on the processing

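The count of 26 members with a higher value ranged from 23 (at 5 FPKM or more, where 36 were tested) to 28 under all alternatives, and the median difference kept its sign. Members higher past 1.5-fold numbered 0 at 5 FPKM or more, 2 with the accession of highest mean FPKM (APOL3 and MX1), and 0 with unmatched accessions added, an alternative chosen after seeing the data. That addition also left 0 members lower past 1.5-fold and turned IFI27 to 0.28. XAF1 changed sign with the accession of highest mean FPKM, and IFIT5, which is near 0, when differences were centred on the median of all genes. Members near an LNCaP LSD1 peak numbered 9 at 5 kb, 20 at 50 kb, and 9 with the part of the list at or above its median score. Those near VCaP LSD1 numbered 9, 21 and 9 at the same settings, and those near H3T6ph 2, 4 and 0. Shares over all genes were not computed at these settings, so the counts have no background beside them. No paired analysis was possible because each group held 1 library. Leaving out a library was not possible for the same reason. Low members rest on few fragments, and nothing here separates a difference between conditions from a difference between 2 libraries.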

Other observations

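Genes driven by NF-kB, which is activated by many of the same RNA sensors, were read from a list of 14, of which 9 reached 1 FPKM. Of the 9, 8 were higher after LSD1 siRNA, where 47.4% of all genes tested were, and the median log2 difference was 0.23. The difference from all genes was not tested. CXCL8, a neutrophil chemokine gene, was at 3.39 and 5.93 FPKM (log2 0.66), with a q of 0.350 in the authors' deposited table. BIRC3, an apoptosis inhibitor gene, was at 44.9 and 64.8 FPKM (log2 0.52), and CCL2 at 7.86 and 9.82 FPKM (log2 0.29). NFKBIA, which encodes the inhibitor that NF-kB itself induces, differed by -0.09.

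Genes of the RNA interference machinery, through which siRNAs act, differed by at most 0.17. Of 8 genes 3 (37.5%) were higher, the median was -0.02, and the largest differences were in DICER1 (log2 -0.17) and AGO2 (log2 0.16), the slicing Argonaute.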
